A study of Mus musculus with 5 samples.

Results

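The 9 genes at the core of the Hedgehog signaling pathway, Shh, Ptch1, Smo, Gli1, Gli2, Gli3, Hhip, Boc and Gas1, were followed in cultured mouse neural stem cells (NSCs) and in STO fibroblasts. They were taken by their symbols, with earlier results of these data known, and all 9 were found among the 25414 genes of the files. Primary NSCs, isolated from the cortex of E12.5 embryos, were grown for 5 to 8 passages on poly-ornithine and laminin with EGF, bFGF, heparin and B27 and sequenced in 2 replicates. STO cells are a long-established line of embryonic fibroblasts, often used as feeder cells, grown here in serum for more than 30 passages and sequenced in 3 replicates. Both are labelled C57BL/6, although the protocol also describes STO as derived from SIM mouse embryos, and no transgene or treatment is given for either. Cell type, strain history, passage and medium differ together and cannot be told apart. No Hedgehog ligand or agonist is listed in either medium.

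Hedgehog ligands such as Sonic hedgehog (Shh) bind Patched-1 (Ptch1), which without ligand holds the membrane protein Smoothened (Smo) inactive. Once released, Smo acts at the primary cilium and the GLI transcription factors are turned from repressors into activators. Ptch1, Gli1 and Hhip are themselves induced by the pathway, so their RNA is commonly used as its readout. In the forebrain Shh patterns ventral territories and later sustains stem cells, while Gli3 acts mainly as a repressor that protects dorsal identity.

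The 5 libraries rested on between 15223341 and 22271895 implied fragments, a number reckoned from the confidence bounds that the authors deposited with each value. Levels are FPKM, fragments scaled to transcript length and to the size of the library, so that levels of different genes can be compared. Of the NSC markers, Nes had 176 and 169 FPKM, Sox2 308 and 276 FPKM, Pax6 5.04 and 5.22 FPKM and Olig2 499 and 493 FPKM in NSC replicates 1 and 2. In STO cells Nes was at most 0.0724 FPKM, and Sox2, Pax6 and Olig2 were listed at 0 in every replicate. The 6 fibroblast markers (Col1a1, Col1a2, Col3a1, Fn1, Pdgfrb and Thy1) summed to between 1352 and 1462 FPKM in STO cells and to 5.05 and 5.12 FPKM in NSCs, so the defining markers of each label were found in its own libraries. Several markers of more mature neural cells were also higher in NSCs. The 4 astrocyte markers summed to 70.4 and 71.4 FPKM in NSCs against at most 0.432 FPKM in STO cells, the 4 oligodendrocyte markers to 120.3 and 122.0 FPKM against at most 1.14 FPKM, and the 5 neuron markers to 116.2 and 116.5 FPKM against at most 12.9 FPKM. Map2 alone supplied 100.4 and 102.0 FPKM of the neuron sum in NSCs, and Tubb3, with 9.25 and 8.14 FPKM in NSCs and between 7.84 and 8.57 FPKM in STO cells, overlapped between the cell types. Of these, 4 of 4, 3 of 4 and 4 of 5 had a mean of at least 1 FPKM in NSCs. Endothelial and microglial markers each summed to at most 0.503 FPKM in every library. The part of these other cells in the Hedgehog values was not tested, and in bulk RNA fewer cells of a type cannot be told apart from less RNA per cell.

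The 9 genes differed between the cell types in both directions. Shh, Ptch1 and Hhip were higher in NSCs, and Smo, Boc, Gas1, Gli1, Gli2 and Gli3 were higher in STO cells. The comparison was tested with limma on log2(FPKM + 1) over all 12292 genes with a mean of at least 1 FPKM in either cell type. Of the 9 genes 7 passed this filter, 5 of them called higher and 2 lower in STO cells at a Benjamini-Hochberg adjusted p under 0.05. The 2 cell types are so far apart that 85.6% of all tested genes were called, 41.9% higher and 43.7% lower in STO cells, so a call alone says little about a gene. A stricter call that also asked for a log2 difference of at least 1 was made for 38.4% of all tested genes, 17.1% higher and 21.3% lower, and for 6 of the 7 Hedgehog genes, 4 higher and 2 lower. Shh passed the filter through its level in NSCs alone and Gli3 through its level in STO cells alone, so these 2 had to differ once tested. Gli1 and Hhip lay below the filter in both cell types. Nothing in the labels says whether the replicates were separate cultures, so the p-values measure the spread between these samples, which may be technical.

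**Figure D1:**
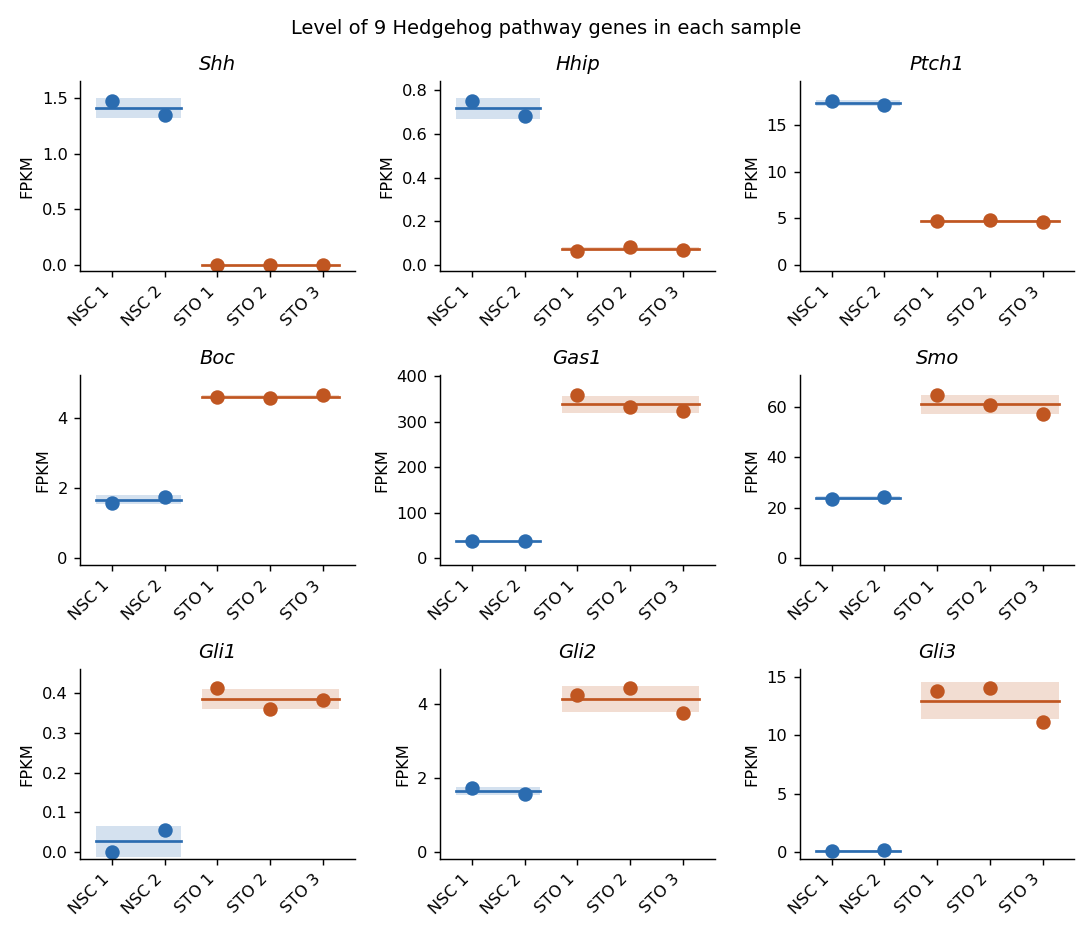
Level in FPKM (vertical axes, linear, 1 scale per gene) of each Hedgehog gene in NSC replicates 1 and 2 (blue) and STO replicates 1 to 3 (orange); lines are group means and bands are 1 SD. Shh, Hhip and Ptch1 are higher in NSCs and the other 6 genes in STO cells.

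Shh, the ligand, was found at a low level in NSCs and not in STO cells. Its level was 1.48 FPKM in NSC replicate 1 and 1.35 FPKM in NSC replicate 2, and it was listed at 0 in all 3 STO replicates. Each NSC value rested on about 115 implied fragments, with deposited bounds of 1.20 to 1.75 and 1.10 to 1.60 FPKM, so both lay clear of 0. The gene spans chr5:28783380-28793641 of mm9 on the minus strand. On the log2(FPKM + 1) scale Shh fell by 1.27 ± 0.043 (SE; limma adjusted p = 5.7e-07) in STO cells, a difference whose size depends on the pseudocount because 1 group is at 0.

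Of the other ligands, Dhh (Desert hedgehog) had the same arrangement, with 1.68 and 1.23 FPKM in the NSC replicates and a listed 0 in all STO replicates. Ihh (Indian hedgehog), with means of 0.0381 FPKM in NSCs and 0.0775 FPKM in STO cells, and the release factors Scube1, Scube2 and Scube3 lay below the filter and were not tested. Hhat, the acyltransferase that attaches palmitate to the ligands, was 6.72-fold higher in mean FPKM in STO cells, at 2.78 ± 0.305 FPKM (SD, n = 3) against 0.413 ± 0.125 (SD, n = 2). Dhh passed the filter through NSCs alone and Hhat through STO cells alone, so both had to differ once tested. Disp1, which releases lipid-modified ligand from the cell, was 1.58-fold higher in STO cells (log2 difference 0.54 ± 0.057, SE; adjusted p = 0.00014).

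Ptch1, the ligand receptor and a target of the pathway, was lower in STO cells. It reached 17.7 and 17.2 FPKM in NSC replicates 1 and 2, against 4.74, 4.78 and 4.59 FPKM in STO replicates 1, 2 and 3. The NSC mean was 3.70 times the STO mean, and on the log2(FPKM + 1) scale Ptch1 fell by 1.69 ± 0.051 in STO cells (SE; limma adjusted p = 3.3e-07). Among all tested genes, 20.6% had a larger difference in either direction.

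The files list 2 Ptch1 transcripts with different starts, both on the minus strand of chromosome 13 and ending at the same base, and only 1 of them was found in STO cells. NM_008957 spans chr13:63609636-63667043 of mm9, and NM_001328514 spans chr13:63609636-63674768, so its first exon lies 7725 bases farther upstream. The distal transcript had 3.51 and 3.79 FPKM in NSC replicates 1 and 2, which made up 19.9% and 22.0% of Ptch1. It was listed at 0 in all 3 STO replicates. The proximal transcript had 14.1 and 13.4 FPKM in NSCs and between 4.59 and 4.78 FPKM in STO cells. The lower Ptch1 of STO cells was thus made up of less proximal transcript and of a distal transcript at 0. Cufflinks divides reads of shared exons between transcripts by a model, so the split is an estimate. In NSCs the distal values had bounds of 3.14 to 3.87 and 3.42 to 4.16 FPKM. Their 367 and 426 implied fragments are reckoned from these bounds and do not count reads of the distal first exon.

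**Figure D2:**
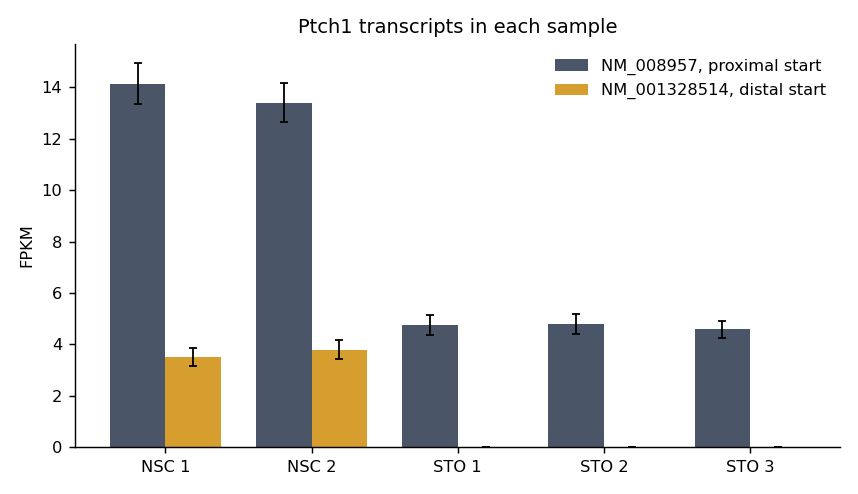
FPKM (vertical axis) of the proximal (grey) and the distal (yellow) Ptch1 transcript in each of the 5 samples; bars start at 0 and error bars are the deposited confidence bounds. The yellow bars reach 3.51 and 3.79 in the NSC replicates and are at 0 in the 3 STO replicates.

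The 250 bases before the proximal Ptch1 start, chr13:63667044-63667293, are shown because the transcript that begins there was found in both cell types. They were read from the mm9 genome on the strand of the gene, and 78.4% of them are G or C.
Ptch1 proximal start: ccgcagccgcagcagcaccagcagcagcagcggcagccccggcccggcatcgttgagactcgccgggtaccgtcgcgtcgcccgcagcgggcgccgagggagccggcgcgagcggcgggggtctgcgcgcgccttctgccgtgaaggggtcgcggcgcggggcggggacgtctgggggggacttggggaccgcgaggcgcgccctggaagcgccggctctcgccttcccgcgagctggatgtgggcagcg

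Hhip, a membrane protein that binds and sequesters Hedgehog ligands, is the other member that was lower in STO cells and also a target of the pathway. Its levels were 0.753 and 0.684 FPKM in NSC replicates 1 and 2 and 0.0635, 0.0810 and 0.0673 FPKM in STO replicates 1, 2 and 3. The NSC mean was 10.2 times the STO mean. These are low levels, resting on 209 and 208 implied fragments in NSCs and on 13.0, 18.9 and 21.0 in STO cells, and Hhip lay under the filter of the test. When the filter was dropped, 70.4% of the 17724 genes above 0 in any sample were called. Hhip then fell by 0.68 ± 0.027 in STO cells on the log2(FPKM + 1) scale (SE; limma adjusted p = 8.7e-06). An exact permutation test of 2 against 3 samples cannot go below p = 0.1.

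Boc and Gas1, cell-surface proteins that bind Shh together with Ptch1 and help its reception, were both higher in STO cells. Boc had 1.59 and 1.76 FPKM in NSC replicates 1 and 2 and 4.60, 4.59 and 4.68 FPKM in STO replicates 1, 2 and 3. This is a 2.76-fold difference of the means, or 1.07 ± 0.053 on the log2(FPKM + 1) scale (SE; limma adjusted p = 3.6e-06). Gas1 was the most abundant of the 9 genes in both cell types, at 37.9 and 39.1 FPKM in NSCs and 360, 332 and 323 FPKM in STO replicates 1, 2 and 3. In STO cells only 0.598% of all genes had a higher mean level. The difference was 8.78-fold in mean FPKM and 3.10 ± 0.066 on the log2 scale (SE; adjusted p = 6.7e-08), and 8.20% of tested genes had a larger one. Cdon, the relative of Boc with the same role, rose 2.18-fold, from 9.14 ± 0.175 FPKM (SD, n = 2) in NSCs to 19.9 ± 0.393 (SD, n = 3) in STO cells (adjusted p = 2.9e-06). All 3 coreceptors were called higher in STO cells, as were 41.9% of all tested genes. Lrp2 and Gpc3, other cell-surface proteins that take part in reception, lay under 1 FPKM on average in both cell types and were not tested. Their means went opposite ways. Lrp2 had 0.0404 FPKM in NSCs and 0.694 FPKM in STO cells, and Gpc3 0.660 FPKM in NSCs and 0.0602 FPKM in STO cells.

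Smo, the receptor-like protein through which the pathway signals, was abundant in both cell types and higher in STO cells. It had 23.4 and 24.5 FPKM in NSC replicates 1 and 2 and 64.9, 60.6 and 57.4 FPKM in STO replicates 1, 2 and 3. The means differed 2.54-fold (log2 difference 1.31 ± 0.067, SE; limma adjusted p = 4.1e-06). Because Smo rose and Ptch1 fell, their proportion within a library, which does not depend on how libraries are scaled, was far apart in the 2 cell types. There were 0.755 and 0.701 FPKM of Ptch1 for each FPKM of Smo in NSCs, against 0.0731, 0.0789 and 0.0799 in STO replicates 1, 2 and 3.

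The GLI transcription factors, the end point of the pathway, differed both in amount and in make-up. Summed over the 3 genes they came to 1.81 and 1.80 FPKM in NSCs and to 18.4, 18.8 and 15.3 FPKM in STO replicates 1, 2 and 3. Gli2, which supplies most of the activator, made up 95.4% and 87.9% of the sum in NSCs and between 23.0% and 24.7% in STO cells. Gli3, the main repressor, made up 4.59% and 9.01% in NSCs and between 72.8% and 74.7% in STO cells. The larger of the 2 shares was thus Gli2 in each NSC replicate and Gli3 in each STO replicate.

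**Figure D3:**
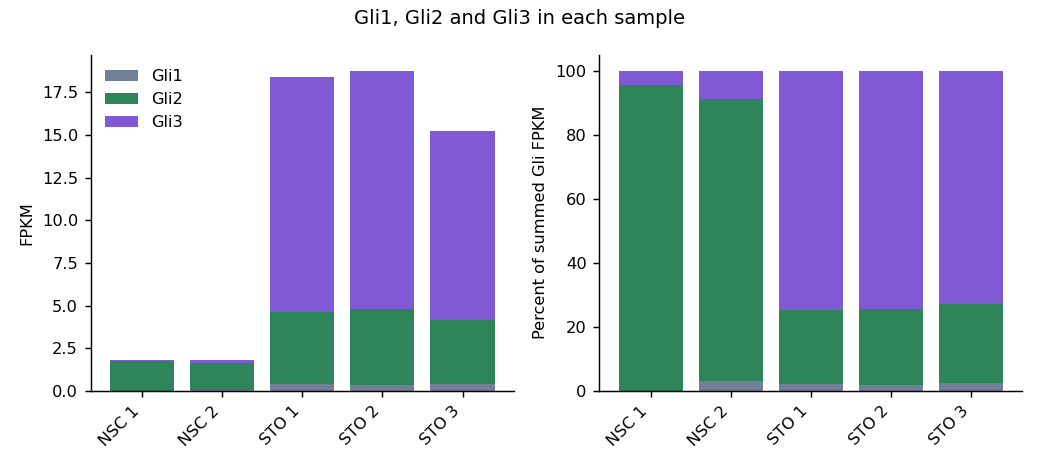
Stacked levels of Gli1, Gli2 and Gli3 in each sample, in FPKM (left) and as a percent of their sum (right). The NSC bars sum to 1.81 and 1.80 FPKM and are mostly Gli2; the STO bars sum to 15.3 to 18.8 FPKM and are 72.8% to 74.7% Gli3.

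Gli3 had the largest difference of the 9 genes on the log2(FPKM + 1) scale. It was at 0.0830 and 0.162 FPKM in NSC replicates 1 and 2 and at 13.7, 14.0 and 11.1 FPKM in STO replicates 1, 2 and 3. The log2 difference was 3.63 ± 0.11 (SE; limma adjusted p = 2.8e-07), and 5.81% of all tested genes had a larger one. The STO mean was 106 times the NSC mean, a ratio that rests on only 22.0 and 46.7 implied fragments in the NSC replicates, with deposited bounds of 0.0476 to 0.118 and 0.115 to 0.209 FPKM. The gene covers chr13:15555556-15821858 of mm9 on the plus strand.

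Gli2 was also higher in STO cells, by less. Its values were 1.73 and 1.58 FPKM in NSCs and 4.24, 4.43 and 3.76 FPKM in STO replicates 1, 2 and 3, a 2.51-fold difference of the means (log2 difference 0.95 ± 0.072, SE; limma adjusted p = 2.8e-05). Gli2 was called but missed the stricter limit of 1. Over the 13 alternatives described below its log2 difference lay on both sides of that limit. It ran from 0.91 without STO replicate 2 to 1.32 after quantile normalization. For each FPKM of Gli2 there were 0.0481 and 0.103 FPKM of Gli3 in NSCs and 3.24, 3.16 and 2.95 FPKM in STO replicates 1, 2 and 3.

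Gli1, the target gene most often read as a sign of pathway activity, was low everywhere. It was listed at 0 in NSC replicate 1 and had 0.0555 FPKM in NSC replicate 2, against 0.412, 0.360 and 0.381 FPKM in STO replicates 1, 2 and 3. The values rested on 6.12 implied fragments in NSC replicate 2 and on 32.1, 32.3 and 46.1 in the STO replicates. Gli1 did not reach the filter, and without the filter the log2 difference was 0.43 ± 0.033 (SE; limma adjusted p = 0.00012). The 3 pathway-induced members therefore did not move together: Gli1 was higher in STO cells, and Ptch1 and Hhip were higher in NSCs.

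Ranked by mean level, the order in NSCs was Gas1, Smo, Ptch1, Boc, Gli2, Shh, Hhip, Gli3 and Gli1. Boc and Gli2 overlapped in NSCs, and the deposited bounds of Gli2 and Shh overlapped in both replicates. In STO cells the order was Gas1, Smo, Gli3, Ptch1, Boc, Gli2, Gli1, Hhip and Shh, with overlapping replicates only for Ptch1 and Boc. Gas1 and Smo led in both cell types, and the third place passed from Ptch1 to Gli3.

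The tested genes nearest to each member over the 5 samples were sought by Euclidean distance in log2(FPKM + 1), which weighs level and pattern alike. Nearest to Shh were Lypd6 and Vstm4 (distances 0.028 and 0.038), to Ptch1 Magi1 and Gprasp1 (0.13 and 0.16), to Smo Susd6 and Ralgds (0.11 and 0.16), and to Boc Glb1l and 5830417I10Rik (0.13 and 0.14). Nearest to Gli2 were Zfp229 and Prokr1 (0.15 and 0.19), and to Gli3 Ahr and Arhgap22 (0.19 and 0.24). Gas1, at a level few genes reach, had more distant neighbours in Serpinh1 and Pdgfra (0.40 and 0.50). Pdgfra had 30.4 and 30.1 FPKM in NSCs and between 344 and 355 FPKM in STO cells. With 2 cell types, many genes share such a pattern, and the distances describe likeness only.

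The 19 genes listed as acting between Smo and GLI, which include restraints on GLI such as Sufu and Spop, all passed the filter. In STO cells 9 of them rose and 8 fell, or 10 and 6 when each sample was scaled to a common sum, with Prkar1a changing sign. The 17 called are 89.5% of the list, close to the 85.6% of all tested genes. Of all 12292 tested genes 5153 rose and 5375 fell. Under the same scaling 13147 genes passed the filter, of which 6175 rose and 5083 fell. The median log2 difference was 0.098, beside -0.023 over all tested genes. Evc and Evc2, a pair of ciliary proteins that bind Smo, had the largest rises, 4.69-fold and 3.76-fold in mean FPKM (log2 differences 2.08 ± 0.047 and 1.75 ± 0.053, SE; limma adjusted p = 8.4e-08 and 3.3e-07). Spop, an adaptor that marks GLI proteins for degradation, rose by 1.17 ± 0.059 (SE), and Sufu, which holds GLI proteins in the cytoplasm, by 0.96 ± 0.076 (SE), from 11.1 ± 0.620 FPKM (SD, n = 2) to 22.7 ± 1.66 (SD, n = 3). Arrb2, a beta-arrestin, fell by 1.05 ± 0.088 (SE) and Gnas, the stimulatory G protein alpha subunit upstream of protein kinase A, by 0.97 ± 0.077 (SE) in STO cells. Kif7, the ciliary kinesin that positions GLI proteins, was not called, with 4.57 ± 0.452 FPKM (SD, n = 2) in NSCs and 3.81 ± 0.400 (SD, n = 3) in STO cells (log2 difference -0.21, 95% confidence interval -0.43 to 0.010; limma adjusted p = 0.067).

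Of the 27 genes for building the primary cilium, on which signaling from Smo depends, all were tested. In STO cells 17 rose and 8 fell, or 18 and 5 when samples were scaled to a common sum. Under that scaling more of all tested genes rose and fewer fell, as given above. The 25 called are 92.6% of the list, beside 85.6% of all tested genes, of which 41.9% rose and 43.7% fell. Their median log2 difference was 0.29. Ift80 and Ift88, subunits of the intraflagellar transport complex, rose by 1.88 ± 0.054 and 1.41 ± 0.055 (SE), Ift80 from 3.90 ± 0.126 FPKM (SD, n = 2) to 17.0 ± 0.480 (SD, n = 3). Tctn1 and Tctn2, members of the ciliary transition zone, rose by 1.22 ± 0.12 and 1.21 ± 0.052 (SE). Mks1, of the same zone, went the other way, falling from 3.71 ± 0.0600 FPKM (SD, n = 2) in NSCs to 0.488 ± 0.123 (SD, n = 3). Mks1 passed the filter through NSCs alone and had to differ, and the other 26 genes had at least 1 FPKM in both cell types.

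Among other genes known to respond to Hedgehog in some tissue, 16 were tested, and 9 of these passed the filter through 1 cell type alone and so had to differ. They were Foxf1, Foxf2, Foxl1, Snai1, Osr1 and Foxc2 through STO cells and Nkx2-2, Olig2 and Jag2 through NSCs. Of the 7 with at least 1 FPKM in both cell types 4 rose and 3 fell in STO cells, where 85.6% of all tested genes were called. The 22 genes of this list serve many pathways, and Olig2 is also among the NSC markers above. Osr1, a mesenchymal transcription factor, was listed at 0 in both NSC replicates and between 79.0 and 81.3 FPKM in STO cells. Snai1, a factor of mesenchymal cells, rose from 0.0286 ± 0.0151 FPKM (SD, n = 2) to 21.5 ± 0.598 (SD, n = 3). In the other direction, Olig2 and Nkx2-2, transcription factors of ventral neural progenitors and the oligodendrocyte lineage, had 496 ± 4.14 and 19.2 ± 1.44 FPKM (SD, n = 2) in NSCs and were listed at 0 in every STO replicate. Ccnd2, a cyclin that drives entry into the cell cycle, had 411 ± 10.6 FPKM (SD, n = 2) in NSCs and 27.0 ± 3.01 (SD, n = 3) in STO cells (log2 difference -3.88 ± 0.097, SE; limma adjusted p = 1.4e-07). The ventral markers Nkx6-1, Nkx6-2 and Foxa2, named after their values were seen, were listed at 0 in all 5 samples.

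**Figure D4:**
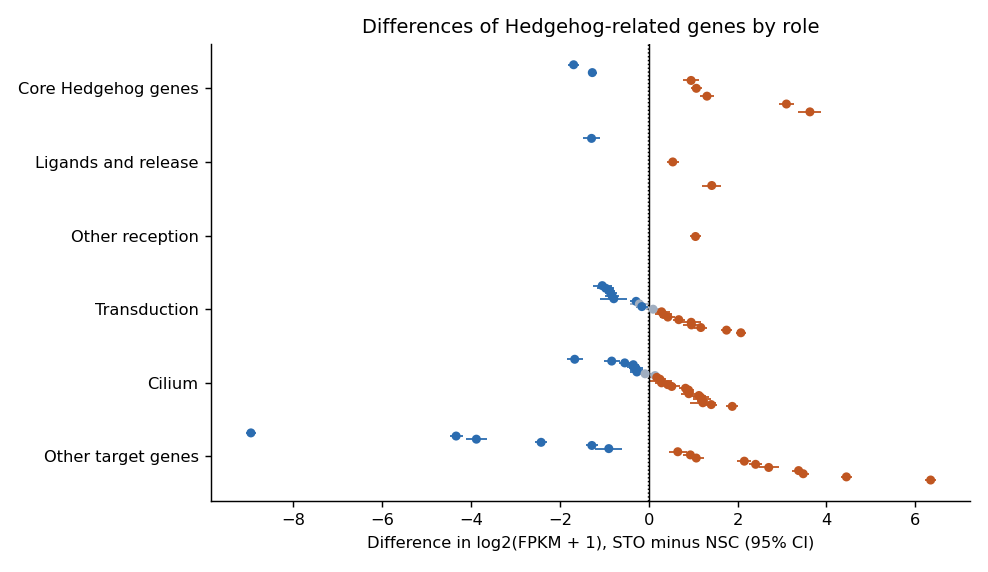
Difference in log2(FPKM + 1), STO minus NSC (horizontal axis), of each tested gene with its 95% confidence interval, by role; orange genes were called higher and blue ones lower in STO cells, grey ones not called, and the dotted line is the median of all tested genes (-0.023). Transduction and cilium genes lie within 2.08 of 0, while the other target genes reach 6.35 and -8.96.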

How the data were processed

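RNA-seq was analysed for 2 NSC and 3 STO samples. By the study's methods, stranded mRNA libraries were trimmed, aligned to mm9 with HISAT2 (given as version 4.8.2) and quantified with Cufflinks 2.2.1 on RefSeq. The authors deposited FPKM values with confidence bounds for 40201 transcripts in each file, and no read counts. Here, transcripts were matched to symbols through the RefSeq table of GRCm38.p6 (39951 matched), used for names only, and summed per symbol over overlapping loci. Implied fragments are (2 × FPKM/d) squared, where d is the upper bound minus the FPKM. The formula takes the bounds as counting error only, so no other spread is covered. Where Cufflinks divides reads between transcripts, as for Ptch1, the bounds may be wider and the implied number is not a count of reads. Cell types were compared with limma 3.58.1 in R 4.3.3 (trend) on log2(FPKM + 1), checked on simulated data. Figures used Python 3.11.15 and matplotlib 3.10.9. Sequences came from NCBIM37 (mm9), with strands from GENCODE M1.

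The 9 genes and all lists were chosen with earlier results of these data known. Named genes were the 9, up to 5 called genes with the largest difference in each list, Ihh, Dhh, Cdon, Sufu and Kif7 in any case, and the 2 nearest genes of each tested member. Starts in the files count from 0 and were raised by 1. Alternatives changed the pseudocount, filter, scaling, trend, transcript sum, pairing and replicates. Some items of the lists and sequences are not reported here.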

Additional observations from a re-analysis of the deposited data

How the results depend on the processing

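Each of the 7 tested Hedgehog genes kept its direction under all 13 alternatives, 5 of which left out a replicate each. Only scaling to a common sum and quantile normalization could have turned it, and neither did. A changed filter or no variance trend leaves the log2 difference as it is, and the largest transcript changes Ptch1 alone. No member's values overlap between the cell types, so a changed pseudocount or a left-out replicate keeps the direction. The replicate block repeats the differences found without STO replicate 3. Each of the 7 genes also kept its call wherever both cell types had at least 2 replicates. Shh and Gli3 had to differ once tested, so their part of this was fixed by the filter. In the main comparison 85.6% of all tested genes were called, and how many of them kept their call was not counted. With a single NSC replicate left, its spread is assumed to be that of the STO replicates. The widest ranges of the log2 difference were those of Shh, from -3.92 with a pseudocount of 0.1 to -0.76 after quantile normalization, and of Gli3, from 3.57 without STO replicate 2 to 5.89 with a pseudocount of 0.1. Ptch1 was at -1.37 when only its larger transcript was taken. Scaling each sample to a common sum moved the median of all tested genes by 0.146, with 13147 genes tested in place of 12292.

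Asking for a log2 difference of at least 1, chosen after seeing the data, left 2103 genes with a rise and 2617 with a fall, and 20 and 8 of the wider Hedgehog genes against 39 and 23. Fewer genes meet it by construction. No other alternative moved a count by over 1.5 times. Among the wider genes, Prkar1a turned from -0.16 to 0.018 and Dync2li1 from -0.083 to 0.080 when scaled to a common sum, and neither was called there. The replicate numbers 1 and 2 occur in both cell types, but nothing ties them together, and deviations of samples with the same number correlated at 0.0075 and 0.061. With the replicate block, 4994 genes rose and 5252 fell in STO cells, and 7 Hedgehog genes were called. Depth limits the ratios of genes with few implied fragments in their lower group: none for Shh, at most 6.12 in a library for Gli1, 21.0 for Hhip and 46.7 for Gli3.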

Other observations

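Protein kinase A, which phosphorylates GLI proteins when Smo is inactive, was represented by Prkaca, Prkacb and Prkar1a. These genes were named after their values were seen. The catalytic subunits Prkaca and Prkacb were lower in STO cells, at 63.8 ± 3.94 and 42.4 ± 0.996 FPKM (SD, n = 3) against 113 ± 1.90 and 78.9 ± 3.10 (SD, n = 2; limma adjusted p = 4.1e-05 and 9.4e-06). The regulatory subunit Prkar1a was called lower, with a log2 difference of -0.16 (limma adjusted p = 0.030). This turned to 0.018 when samples were scaled to a common sum and to 0.0015 after quantile normalization, and was called in neither.

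The forkhead genes Foxf1, Foxf2 and Foxl1, induced by Hedgehog in gut and other mesenchyme and also named after their values were seen, were listed at 0 in both NSC replicates. In STO replicates 1, 2 and 3 Foxf1 had 6.20, 5.55 and 4.85 FPKM, Foxf2 9.91, 9.12 and 9.10 FPKM, and Foxl1 1.24, 0.928 and 1.14 FPKM. Pdgfra, one of the genes nearest to Gas1, is in the list of other target genes as well, and was 11.5-fold higher in mean FPKM in STO cells.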
